A study of Mus musculus with 51 samples.

Results

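The 8 genes described here encode the proteins with which a cell stores, takes up, moves, recovers and exports iron. They are 8 of the 50600 gene identifiers counted, and were listed by name. The list was chosen by the high level of Fth1 in exudate neutrophils, read as scaled counts in the tissue libraries of these data. Each was followed across mouse neutrophils from 4 tissues and across cultured neutrophils of 7 genotypes, and the open chromatin sites within 50000 bp of each gene start were examined. Because the choice rested on exudate levels, the differences between exudate and the other tissues are given as descriptions without a test.

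The study compared neutrophils along their path into inflamed tissue, and neutrophils grown in culture with and without single transcription factors. In the first experiment, 100 µg of zymosan, a yeast cell wall preparation, was injected into an air pouch raised under the skin 6 days earlier, and cells were collected 4 h later. Neutrophils were sorted from the pouch exudate, the pouch membrane, the blood and the bone marrow; for RNA the mice were CX3CR1GFP Ly6GCre-tdTomato, so every tissue group of RNA libraries carried the same reporter alleles. RNA was sequenced in 5 exudate, 2 membrane, 5 blood and 3 bone marrow libraries by Smart-seq2, and chromatin accessibility (ATAC-seq) in 2 libraries per tissue of 75000 Ly6G-positive cells each. All 4 tissues came from mice with a zymosan pouch; no tissue of an untreated mouse is in the comparisons. In the second experiment, ER-Hoxb8 cells, which are myeloid progenitors immortalised by an oestrogen-dependent Hoxb8, were differentiated into neutrophils for 5 days with G-CSF and held for 2 h with 50 µg/ml zymosan or with DMSO. The first culture set held lines labelled CEBPB-/-, JUNB-/- and WT, and the second held lines labelled IRF5-/-, RELB-/- and WT, each with zymosan and with DMSO in 2 libraries. Lines labelled RUNX1-/- and KLF6-/- had DMSO libraries alone, 2 each, and were set against the DMSO libraries of the second WT in a separate table. The labels do not say whether a line is 1 clone or whether replicates are separate cultures, so p-values measure the spread between these libraries, which may be technical.

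Cells keep iron in ferritin, a hollow shell built of heavy chains (Fth1), which oxidise the metal, and light chains (Ftl1), which help it mineralise. Ncoa4 carries ferritin to the lysosome to release the iron, transferrin receptor (Tfrc) brings in transferrin-bound iron, Slc11a2 (DMT1) moves ferrous iron out of endosomes, and Slc11a1 (NRAMP1) pumps metal out of the phagosome of macrophages and neutrophils, where it limits microbial growth. Haem oxygenase 1 (Hmox1) frees iron from haem, and ferroportin (Slc40a1) is the iron exporter of the cell surface. Ferritin and Tfrc are also set after transcription by iron regulatory proteins that bind their mRNAs, and ferritin, Hmox1 and Slc40a1 are known targets of the NRF2 and BACH1 factors.

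The start regions of both ferritin chains, Tfrc and Slc11a1 are shown because the accessibility near these genes is described further on. They are RefSeq promoter windows of build GRCm38.p6, 250 bases each, written 5' to 3' on the gene's strand, and capitals mark matches to the motifs searched. The windows are chr19:9982396-9982645 (plus strand) for Fth1, chr7:45459887-45460136 (minus) for Ftl1, chr16:32608646-32608895 (plus) for Tfrc and chr1:74374953-74375202 (plus) for Slc11a1.
Fth1: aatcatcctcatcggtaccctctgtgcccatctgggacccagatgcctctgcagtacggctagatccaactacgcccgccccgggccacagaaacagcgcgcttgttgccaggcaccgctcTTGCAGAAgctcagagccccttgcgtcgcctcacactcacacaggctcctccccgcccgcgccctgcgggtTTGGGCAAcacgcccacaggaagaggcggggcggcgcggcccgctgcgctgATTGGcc
Ftl1: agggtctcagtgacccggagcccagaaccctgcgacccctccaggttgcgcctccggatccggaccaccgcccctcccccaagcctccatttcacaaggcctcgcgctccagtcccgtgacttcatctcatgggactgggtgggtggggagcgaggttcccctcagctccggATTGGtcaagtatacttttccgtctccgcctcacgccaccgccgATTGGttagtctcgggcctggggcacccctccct
Tfrc: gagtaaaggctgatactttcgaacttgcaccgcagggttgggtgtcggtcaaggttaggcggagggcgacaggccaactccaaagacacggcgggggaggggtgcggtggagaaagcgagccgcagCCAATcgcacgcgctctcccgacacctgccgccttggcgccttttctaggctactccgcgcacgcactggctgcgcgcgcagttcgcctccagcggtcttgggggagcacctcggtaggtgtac
Slc11a1: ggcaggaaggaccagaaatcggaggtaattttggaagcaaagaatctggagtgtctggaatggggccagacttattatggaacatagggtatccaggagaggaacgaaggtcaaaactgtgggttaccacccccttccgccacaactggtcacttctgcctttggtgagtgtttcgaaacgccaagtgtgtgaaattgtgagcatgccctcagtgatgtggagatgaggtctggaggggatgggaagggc

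Positions in a window are counted back from its RefSeq start, which is not exactly the gene start of the deposited annotation that the site distances further on use; for Fth1 it lies upstream of that start. The Fth1 window held 2 matches to the C/EBP letters TTGCNNAA, at 129 to 122 and 58 to 51 bases before the start, and 1 to the CCAAT box at 7 to 3 bases before it. The Ftl1 window held 2 CCAAT boxes, the Tfrc window 1, and the Slc11a1 window none of the 7 motifs. Both strands of 32851 mouse windows were searched: TTGCNNAA was in 9.56% of them and CCAAT in 33.8%. The antioxidant response element letters TGACNNNGC (10.2% of windows), AP-1 TGANTCA (6.75%), E-box CACGTG (6.02%), the NF-kB motif (1.41%) and ETS GGAAGT (19.7%) did not occur in these 4 windows. Other windows of the members held 1 ETS match (at another Tfrc start) and 1 antioxidant response element match (TGACCTGGC, at another Ncoa4 start). A match is a description of letters and not of binding. GC content was 66.8% for Fth1, 65.2% for Ftl1, 64.8% for Tfrc and 51.2% for Slc11a1, against a median of 52.4% over all windows. Hmox1, Slc40a1 and Slc11a2 are named without a window.

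In the deposited annotation (GRCm38), Fth1 (ENSMUSG00000024661) spans chr19:9982703-9985092, Ftl1 (ENSMUSG00000050708) chr7:45457944-45459884, Ncoa4 (ENSMUSG00000056234) chr14:32159865-32179855 and Tfrc (ENSMUSG00000022797) chr16:32608920-32632794. Slc11a1 (ENSMUSG00000026177) spans chr1:74375195-74386062, Slc11a2 (ENSMUSG00000023030) chr15:100387898-100425072, Hmox1 (ENSMUSG00000005413) chr8:75093621-75100589 and Slc40a1 (ENSMUSG00000025993) chr1:45908068-45926523. Ftl1 overlaps Gm22133 on its own strand and Gm10252 on the other.

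Read totals, in units of 1e6, ran from 9.24 to 19.1 per tissue library and from 19.4 to 34.3 per culture library. The spread between replicates was very unequal: edgeR estimated a biological coefficient of variation of 1.86 for the tissue libraries and of 0.019 to 0.0278 for the 3 culture tables. Levels are CPM, read counts scaled to library size by the TMM method, and each table was scaled by itself, so CPM are compared within a table alone. Neutrophil markers summed to 85123 to 344605 CPM in exudate, 106754 and 154139 CPM in membrane, 189356 to 308871 CPM in blood and 202205 to 257653 CPM in bone marrow, so both membrane sums were below all blood and bone marrow sums. Macrophage markers summed to 606 to 913 CPM in exudate, 626 to 871 in membrane, 111 to 686 in blood and 3.96 to 156 in bone marrow, and Spic was at 0 in every exudate library. Erythroid markers summed to at most 1.78 CPM in exudate, 0.171 in membrane and 3.99 in blood, and to 1489 CPM in the first bone marrow library, which had 0 CPM of Tfrc. Lymphoid markers reached 8.47 CPM in exudate and 72.2 CPM in bone marrow, eosinophil and mast cell markers 0.713 CPM in exudate and 0 in bone marrow, and cell cycle genes 17.6 CPM in exudate, 50.5 CPM in membrane, 115 CPM in blood and 66.5 CPM in bone marrow. The columns of the tissue table also carry a tag, 100 or 300, whose meaning is not given in the sources used here. All bone marrow libraries are tagged 100 and both membrane libraries 300, so for that pair tag and tissue cannot be told apart.

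Ferritin heavy chain was the member with the largest amount of RNA. Fth1 had 42850, 85943, 78822, 61268 and 12301 CPM in the 5 exudate libraries and 50719 and 52264 CPM in the membrane libraries. It had 34737, 30690, 7413, 5592 and 4558 CPM in the 5 blood libraries and 4793, 3870 and 4937 CPM in bone marrow. All exudate and membrane values were above all bone marrow values, whereas exudate overlapped blood through 1 low exudate and 2 high blood libraries. Means were 56237 ± 29696 CPM in exudate (SD, n = 5), 51492 ± 1093 in membrane (SD, n = 2), 16598 ± 14816 in blood (SD, n = 5) and 4533 ± 579 in bone marrow (SD, n = 3). The fitted log2 difference was 3.63 ± 0.68 (SE) for exudate over bone marrow, 1.76 ± 0.51 over blood and 0.13 ± 0.66 over membrane. Of all genes tested, 0.178% passed the threshold (adjusted p of 0.05) in exudate against bone marrow, and 0% did so against blood or membrane. These are the values the choice of Fth1 rested on, and nothing is read from them. In bulk libraries, fewer cells of a type and less RNA per cell cannot be told apart.

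Within the tag 100 libraries, Fth1 stood at 42850 and 85943 CPM in exudate, against 34737, 30690 and 7413 CPM in blood. Within tag 300 it stood at 78822, 61268 and 12301 CPM in exudate, against 5592 and 4558 CPM in blood. With a term for the tag the log2 difference over blood was 2.37 ± 0.50. These too are values the choice of Fth1 rested on, and nothing is read from them. Blood libraries of tag 100 spread widely, 1 of the 3 being near the tag 300 pair.

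Ferritin light chain differed less between tissues. Ftl1 had 3020, 806, 3054, 2474 and 4810 CPM in exudate and 4596 and 4037 CPM in membrane. It had 1972, 2597, 3050, 2070 and 840 CPM in blood and 950, 1146 and 1182 CPM in bone marrow. Exudate overlapped bone marrow through 1 library at 806 CPM and overlapped blood throughout, and the log2 difference was 1.37 ± 0.56 over bone marrow and 0.43 ± 0.46 over blood. Per unit of transcript length, Fth1 averaged 71293 ± 33915 TPM and Ftl1 2360 ± 1247 TPM in exudate (SD, n = 5 each). In bone marrow Fth1 averaged 7753 ± 1521 TPM and Ftl1 1193 ± 41.5 TPM (SD, n = 3 each). Tissue counting ignored strand, so Ftl1 reads cannot be told apart from those of Gm10252, which overlaps Ftl1 on the other strand. Ftl1 values are also uncertain because a near-identical copy, Ftl1-ps1, shares its reads. The copy took 28.2% to 63.2% of the reads of the pair in exudate, the highest being the exudate library with the lowest Ftl1, and 26.1% to 30.1% in the other tissues. The overlap of exudate with bone marrow rests on that library, so it cannot be told apart from the split of reads between the copies. Adding the copy's reads, chosen after seeing the data, moved none of the 3 exudate differences by more than the largest SD of log2 Ftl1 within a tissue.

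**Figure D1:**
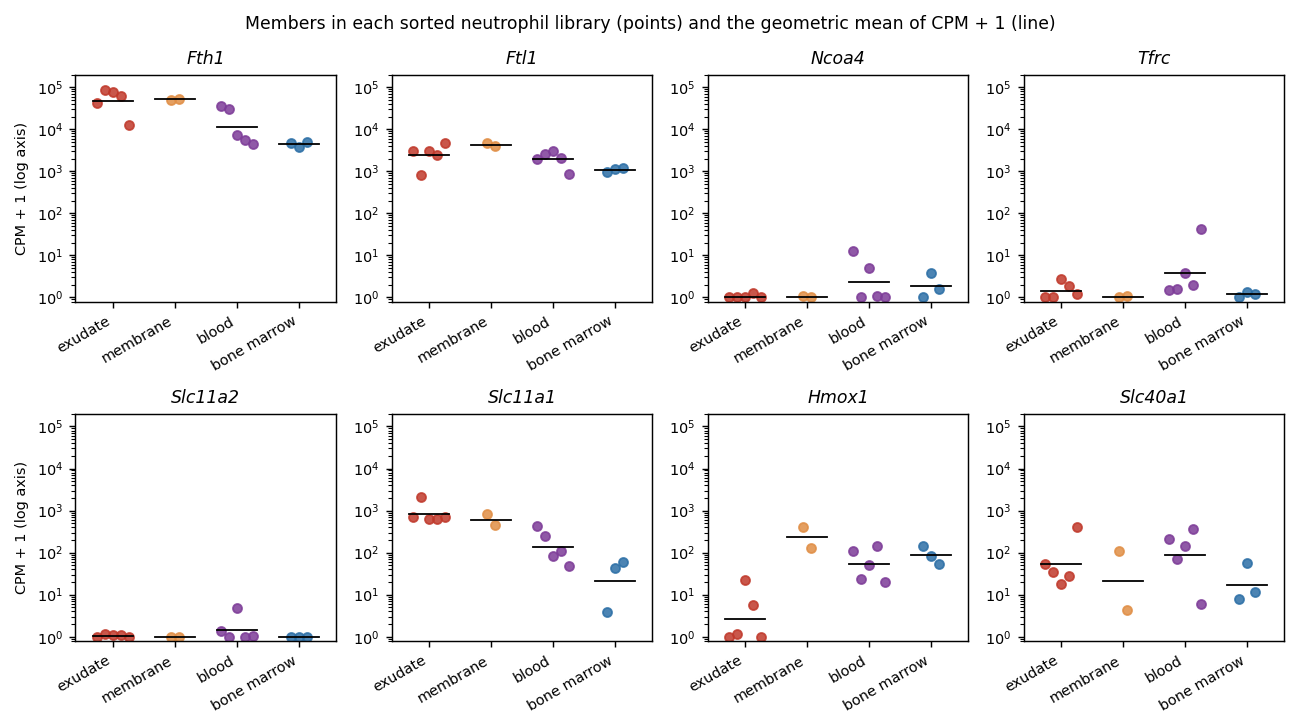
Levels of the 8 iron genes in each RNA library of sorted neutrophils, in CPM plus 1 on a log axis. Tissues are exudate, membrane, blood and bone marrow from left to right. Points are libraries and lines are geometric means; the exudate points of Fth1 (12301 to 85943 CPM) and Slc11a1 (616 to 2116 CPM) lie above all bone marrow points, and those of Hmox1 (0 to 21.5 CPM) below them.

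The phagosomal transporter showed the same order of tissues as ferritin heavy chain. Slc11a1 had 694, 2116, 631, 616 and 702 CPM in exudate and 809 and 452 CPM in membrane. It had 422, 243, 80.1, 108 and 46.9 CPM in blood and 2.80, 41.9 and 58.7 CPM in bone marrow. Every exudate library was above every blood and bone marrow library, and all membrane libraries were above them as well. The log2 difference for exudate was 4.79 ± 1.12 over bone marrow, 2.40 ± 0.80 over blood and 0.59 ± 1.04 over membrane. Over all genes, 3.33% had non-overlapping higher values in exudate than in bone marrow and 0.503% than in blood.

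Haem oxygenase went the other way. Hmox1 had 0, 0.154, 21.5, 4.54 and 0 CPM in exudate and 400.3 and 130.4 CPM in membrane. It had 111, 22.8, 50.3, 144 and 19.1 CPM in blood and 144, 81.2 and 53.0 CPM in bone marrow. Exudate was below all membrane and bone marrow libraries, and 1 exudate library was above the lowest blood value. The log2 difference was -5.66 ± 1.77 over membrane, -4.15 ± 1.61 over bone marrow and -3.73 ± 1.51 over blood; with a term for the tag the last was -6.09 ± 2.05. Over all genes, 3.84% had non-overlapping lower values in exudate than in membrane and 8.4% than in bone marrow. Without the third exudate library, which held the 21.5 CPM, the 3 differences were -7.76, -6.22 and -5.82. Exudate and membrane libraries overlapped in both ferritin chains and in Slc11a1, and did not overlap in Hmox1.

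Ferroportin was scattered. Slc40a1 had 53.4, 34.5, 16.9, 27.4 and 406 CPM in exudate and 109.7 and 3.25 CPM in membrane. It had 208, 71.4, 140.2, 355 and 5.11 CPM in blood and 7.01, 55.2 and 10.3 CPM in bone marrow. All tissues overlapped, and the fifth exudate library stood far above the other 4. The log2 difference for exudate was 2.15 ± 1.47 over bone marrow and -0.53 ± 1.16 over blood. Leaving out 1 library at a time put these between 0.44 and 3.62, and between -2.28 and 0.02.

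The uptake genes Tfrc and Slc11a2 and the ferritin receptor Ncoa4 were close to the limit of detection in sorted neutrophils. Tfrc had 0, 0, 1.80, 0.891 and 0.229 CPM in exudate and 0 and 0.0854 CPM in membrane. In blood it had 0.526, 0.571, 2.80, 0.965 and 42.3 CPM, and in bone marrow 0, 0.353 and 0.229 CPM. A single blood library, the fifth, carried nearly all of its blood reads, and without it the log2 difference of exudate over blood was -1.04, against -3.99 with it. That library also had the highest cell cycle sum of the tissue libraries, 115 CPM, against 3.99 to 39.9 CPM in the other blood libraries; the part of cycling cells in its Tfrc reads was not tested. Ncoa4 had reads in 1 of 5 exudate libraries (0.267 CPM) and 1 of 2 membrane libraries (0.0815 CPM), against 0.0482 to 11.6 CPM in 4 of 5 blood libraries and 0.0430 to 2.83 CPM in bone marrow. Slc11a2 did not pass the filter on low counts, so 7 of the 8 members were tested in tissues. It had 0, 2, 1, 1 and 0 reads in exudate and none in membrane, against 4, 0, 65, 0 and 1 reads in blood and none in bone marrow. Tissue counting ignored strand, so Slc11a2 reads cannot be told apart from those of the overlapping gene Gm5475.

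Among the comparisons that did not involve exudate, no member passed the test. Under edgeR's quasi-likelihood test with Benjamini-Hochberg adjustment over 12330 genes, 0 of 7 members were called between membrane and bone marrow (0.0162% of all genes were), between membrane and blood (0%) and between blood and bone marrow (0.0162%). At an unadjusted p under 0.05, the shares of all genes were 13.3%, 7.81% and 11.7% for those comparisons. Fth1 was 3.51 ± 0.73 log2 units higher in membrane than in bone marrow (adjusted p = 0.15), 1.63 ± 0.62 higher in membrane than in blood (0.48) and 1.87 ± 0.62 higher in blood than in bone marrow (0.42). Slc11a1 differed by 4.19 ± 1.16 (0.21), 1.81 ± 0.95 (0.48) and 2.38 ± 0.98 (0.42) in the same pairs, and Ftl1 by 1.98 ± 0.66 (0.32), 1.04 ± 0.58 (0.48) and 0.95 ± 0.55 (0.51). Membrane values lay above all blood and all bone marrow values for these 3 genes, as they did for 5.11% and 12.9% of all genes. The median log2 difference of all genes was -1.74 for membrane over blood and -0.75 for membrane over bone marrow, and neutrophil markers were lower in sum in membrane, as given above; their part in these differences was not tested. Hmox1 differed by 1.52 ± 1.92 log2 units between membrane and bone marrow (0.70), 1.93 ± 1.68 between membrane and blood (0.57) and -0.42 ± 1.54 between blood and bone marrow (0.98); with a term for the tag the second was -0.54 ± 2.57. Without the second membrane library Fth1 was called between membrane and bone marrow (3.56 ± 0.70, adjusted p = 0.032). The lone library is then assumed to vary like the other groups, as is every library left alone in its group when a culture library is left out. DESeq2, with the same filter, called 2 members between membrane and bone marrow, Fth1 and Slc11a1, and 1 between membrane and blood, Tfrc. Of all 12330 genes it called 332 higher and 1269 lower in membrane than in bone marrow, and 30 higher and 1149 lower than in blood. These member counts therefore say little about the members.

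The genes whose log2 level across the 15 tissue libraries was most like that of Fth1, among 3546 with enough reads, were Il1rn (Pearson r = 0.967), Cd14 (0.965) and Ccnd2 (0.962). Among the members r with Fth1 was 0.845 for Slc11a1, 0.441 for Ftl1 and -0.317 for Hmox1. These points share libraries and depth, and the values are descriptions.

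In the cultures, all 8 genes were called between 2 h of zymosan and DMSO in all 6 lines with TMM scaling, a count that fell to 7 in IRF5-/- and 6 in RELB-/- cells with scaling by total counts. Called higher were 7 members and lower was Slc40a1, in each of CEBPB-/-, JUNB-/-, IRF5-/-, RELB-/- and both WT sets. The background was high: 73.5% of all genes were called in CEBPB-/- cells, 73.2% in JUNB-/-, 75.6% in the WT of the first set, 69.8% in IRF5-/-, 72.7% in RELB-/- and 68.4% in the WT of the second set, so the calls alone say little about these genes. The median log2 change of the members was 2.50, 2.23 and 1.47 in CEBPB-/-, JUNB-/- and first-set WT cells, and 1.52, 1.51 and 1.46 in IRF5-/-, RELB-/- and second-set WT cells, while the median of all genes lay between -0.09 and 0.05. At least 2-fold higher were 7 of the 8 members in CEBPB-/-, JUNB-/- and second-set WT cells, against 22.7%, 22.5% and 16% of all genes. In IRF5-/-, RELB-/- and first-set WT cells 6 were, against 17.8%, 17.7% and 19.2% of all genes.

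Scaling matters here. With scaling by total counts in place of TMM, the median of all genes was -0.69 to -1.02 in the 6 zymosan comparisons, and 3 to 5 members remained at least 2-fold higher in each. All 8 members kept the direction of their zymosan change under that scaling except Ncoa4 in IRF5-/- cells, which turned to -0.70. Calls also ended with it for Slc11a2 in IRF5-/- cells (0.42) and for Slc11a2 (0.22) and Ncoa4 (0.037) in RELB-/- cells. Of the genes called in WT cells, the share that rose was 47.3% and 53.1% in the first and second set with TMM, and 22.6% and 16.3% with total counts. The other 4 lines moved likewise, to between 17.6% and 27.8% with total counts.

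Markers of cell state and of other cells also differed with zymosan. Cell cycle genes summed to 35.4 to 38.7 CPM with zymosan, against 8.01 to 8.93 CPM with DMSO, in CEBPB-/- cells, and to 76.9 to 77.2 CPM against 34.9 to 36.5 CPM in JUNB-/- cells. In the WT of the first set they summed to 125 to 136 CPM with zymosan, against 61.1 to 65.6 CPM with DMSO. With zymosan they summed to 50.7 to 56.2 CPM in IRF5-/-, 56.1 to 58.8 CPM in RELB-/- and 130 to 133 CPM in second-set WT cells, against 28.4 to 29.0, 25.4 to 27.97 and 77.5 to 79.8 CPM with DMSO in the same order. Eosinophil and mast cell markers summed to 1377 to 1442 CPM with zymosan, against 1636 to 1639 CPM with DMSO, in the first WT, and to 5509 to 5524 CPM against 3472 to 3539 CPM in the second. The part of these shifts in the zymosan changes below was not tested.

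**Figure D2:**
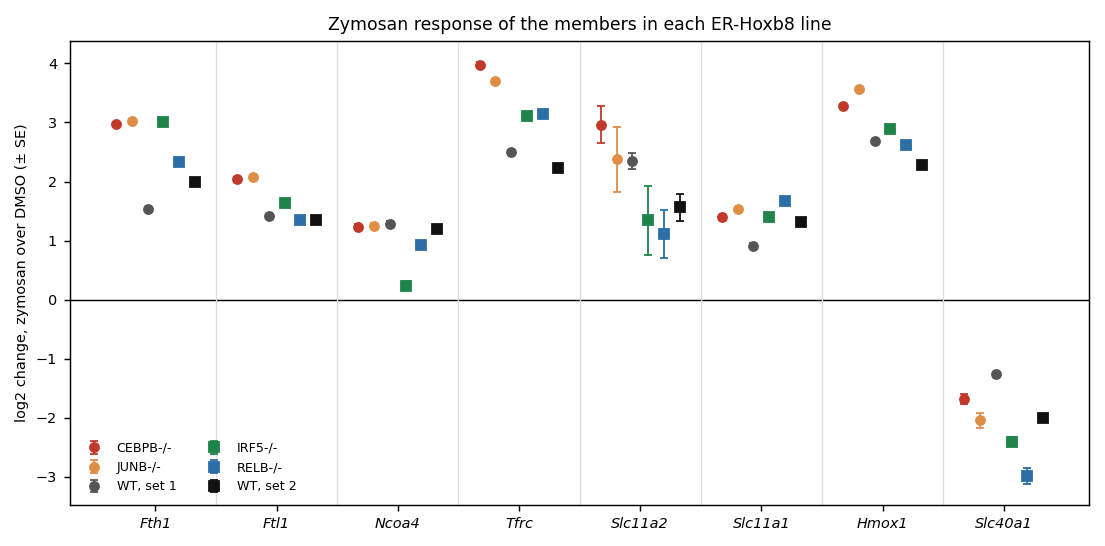
Log2 change with zymosan over DMSO (TMM-scaled edgeR fit, bars are SE) for the 8 iron genes in the 6 ER-Hoxb8 lines, 2 libraries per group. Tfrc, Hmox1 and Fth1 lie between 1.54 and 3.98, and Slc40a1 lies below 0 in every line, between -1.26 and -2.98.

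Both ferritin chains rose with zymosan. Fth1 had 15692 and 14685 CPM with zymosan, against 5215 and 5233 CPM with DMSO, in the WT of the first set, a log2 change of 1.54 ± 0.03 (adjusted p = 2.87e-45). In the WT of the second set it had 28724 and 28249 CPM with zymosan, against 7134 and 7147 CPM with DMSO (2.00 ± 0.01, adjusted p = 1.32e-86). Replicates lay close together and the groups were far apart. Over all genes, 41% and 43.1% had non-overlapping higher values with zymosan in the first and second WT. CEBPB-/- cells had 35872 and 35545 CPM with zymosan, against 4523 and 4559.7 CPM with DMSO. JUNB-/- cells had 23369 and 24179 CPM with zymosan, against 2976 and 2842 CPM with DMSO. IRF5-/- cells had 30844 and 30489 CPM with zymosan, against 3841 and 3783 CPM with DMSO. In these 3 lines the log2 change was 2.98, 3.03 and 3.01, larger than in either WT. RELB-/- cells had 27269 and 26514 CPM with zymosan, against 5302 and 5345 CPM with DMSO, a log2 change of 2.34.

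Ftl1 had 6012 and 5721 CPM with zymosan, against 2199.9 and 2216 CPM with DMSO, in the first WT (1.41 ± 0.03). In the second WT it had 2033 and 2099 CPM with zymosan, against 808 and 814 CPM with DMSO (1.35 ± 0.02). Across the knockout lines its log2 change lay between 1.35 and 2.08. The pseudogene copy Ftl1-ps1 took 0.282% to 0.370% of the reads of the pair in the first set but 22.1% to 27.3% in the others, so Ftl1 levels differ in kind between the tables. Ncoa4, the receptor that delivers ferritin to lysosomes, had 139 and 139 CPM with zymosan, against 57.4 and 56.5 CPM with DMSO, in the first WT (1.29 ± 0.04). It had 41.3 and 46.6 CPM with zymosan, against 19.7 and 18.9 CPM with DMSO, in the second (1.19 ± 0.06). IRF5-/- cells had 27.8 and 26.9 CPM with zymosan, against 22.9 and 23.4 CPM with DMSO, a log2 change of 0.24 ± 0.07 (adjusted p = 0.00186), the change that turned sign with total-count scaling and was not called without the first zymosan library (0.18).

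The uptake genes rose as well. Tfrc had 398 and 395 CPM with zymosan, against 71.6 and 68.3 CPM with DMSO, in the first WT (2.50 ± 0.04, adjusted p = 3.23e-51). In the second WT it had 246 and 239 CPM with zymosan, against 51.5 and 52.3 CPM with DMSO (2.22 ± 0.03). Its change was larger still in CEBPB-/- cells, at 343 and 341 CPM with zymosan, against 22.6 and 20.8 CPM with DMSO (3.98 ± 0.05). Slc11a2 was rare, at 14.5 and 15.5 CPM with zymosan, against 2.73 and 3.16 CPM with DMSO, in the first WT (2.35 ± 0.13). In the second WT it had 4.44 and 4.35 CPM with zymosan, against 1.59 and 1.39 CPM with DMSO (1.56 ± 0.22). In IRF5-/- cells it was below 0.5 CPM in every library, and its call there had the largest adjusted p of the zymosan changes (1.34 ± 0.58, adjusted p = 0.0357). That call ended without the second DMSO library (1.07) or either zymosan library (1.10 and 1.48), and the call in RELB-/- cells (1.11 ± 0.40) ended without the second DMSO library (1.01) or the second zymosan library (1.04).

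The phagosomal transporter Slc11a1 had 462 and 458 CPM with zymosan, against 238 and 249 CPM with DMSO, in the first WT (0.92 ± 0.04). It had 466 and 455 CPM with zymosan, against 183 and 189 CPM with DMSO, in the second (1.31 ± 0.02). Its change was the smallest of the rising members in the first WT, and lay between 1.39 and 1.68 in the knockout lines.

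Hmox1 rose in culture, in contrast to its low level in exudate. It had 2049.5 and 2014 CPM with zymosan, against 316 and 313 CPM with DMSO, in the first WT (2.69 ± 0.03, adjusted p = 3.75e-56). In the second WT it had 1706 and 1710.3 CPM with zymosan, against 350.4 and 351 CPM with DMSO (2.28 ± 0.02). In the first WT, 94.5% of all genes had a smaller log2 change. Exudate cells came from a mouse after 4 h and cultured cells were read after 2 h, and no test joins the experiments.

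Slc40a1 was the only member that fell. It had 61.7 and 54.8 CPM with zymosan, against 142 and 137 CPM with DMSO, in the first WT (-1.26 ± 0.05, adjusted p = 1.43e-30). In the second WT it had 23.2 and 21.1 CPM with zymosan, against 88.1 and 89.2 CPM with DMSO, and fell by 2.00 ± 0.06 on the log2 scale (adjusted p = 2.16e-44). RELB-/- cells had 2.33 and 1.58 CPM with zymosan, against 17.0 and 14.5 CPM with DMSO (-2.98 ± 0.13). The fall was at least 2-fold in all 6 lines, as it was for 21.1% of all genes in CEBPB-/-, 17.2% in JUNB-/-, 17.4% in the first WT, 18.4% in IRF5-/-, 19.8% in RELB-/- and 13.1% in the second WT. Macrophage markers summed to 1476 to 1509 CPM with zymosan, against 1124 to 1162 CPM with DMSO, in the first WT, and to 1121 to 1124 CPM against 924 to 928 CPM in the second. The part of other cells in the Slc40a1 change was not tested.

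**Figure D3:**
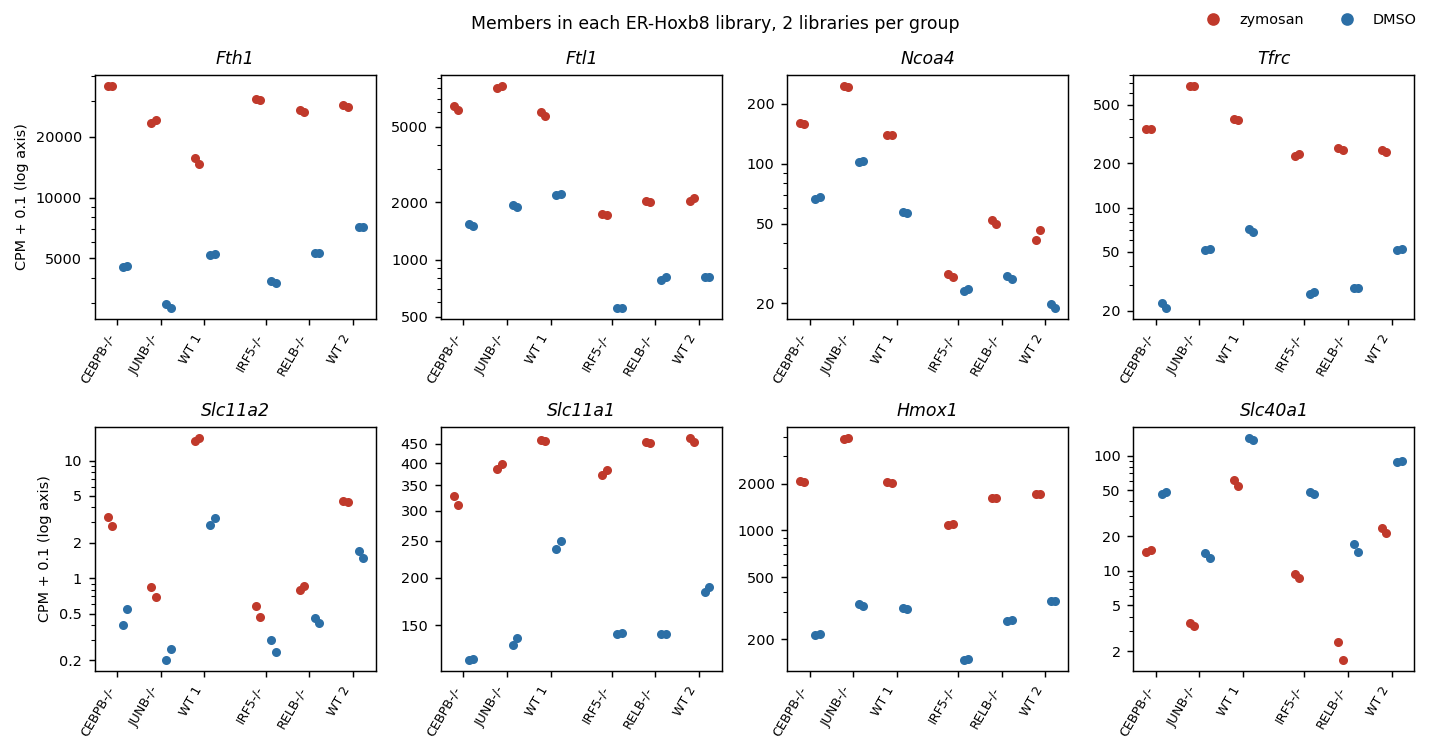
Levels of the 8 iron genes in each ER-Hoxb8 library of the first and second culture sets, in CPM plus 0.1 on a log axis. Each line has zymosan (red) left of DMSO (blue), and RUNX1-/- and KLF6-/- are not shown. Points are single libraries and each set is scaled by itself. Slc40a1 is the one gene whose zymosan points lie below its DMSO points. RELB-/- cells, for example, had 2.33 and 1.58 CPM with zymosan, against 17.0 and 14.5 CPM with DMSO.

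The size of the zymosan change differed between knockout and WT cells for many members, by the interaction term of the same fit. Of 32 member and line pairs, 25 were called: 6 of 8 members in CEBPB-/- (41% of all genes were called), 6 in JUNB-/- (43.6%), 7 in IRF5-/- (33.3%) and 6 in RELB-/- (31.4%). Members whose rise was larger than in WT were Fth1, Hmox1, Tfrc and Slc11a1 in all 4 lines and Ftl1 in 3. The fall of Slc40a1 was larger in all 4. For Fth1 the difference in log2 change, knockout minus WT, was 1.44 ± 0.04 in CEBPB-/-, 1.49 ± 0.04 in JUNB-/-, 1.01 ± 0.02 in IRF5-/- and 0.34 ± 0.02 in RELB-/-. For Tfrc it was 1.48 ± 0.06, 1.20 ± 0.06, 0.89 ± 0.05 and 0.92 ± 0.05 in the same order, and for Slc40a1 -0.42 ± 0.10, -0.78 ± 0.14, -0.40 ± 0.12 and -0.98 ± 0.17. Ncoa4 rose less than in WT in IRF5-/- (-0.95 ± 0.09) and RELB-/- (-0.27 ± 0.09). Slc11a2 in all 4 lines, Ncoa4 in CEBPB-/- and JUNB-/-, and Ftl1 in RELB-/- did not pass the test. Both knockout lines of a set share its WT libraries, so their values are not independent of each other. Leaving out 1 library ended 3 of the smaller calls. Slc40a1 in IRF5-/- was not called without either IRF5-/- zymosan library (-0.35 and -0.24) or the first WT zymosan library (-0.23). Slc11a1 in IRF5-/- (0.09 ± 0.04) was not called without either IRF5-/- DMSO library (0.09 and 0.10) or without the second WT DMSO library (0.07). Ncoa4 in RELB-/- was not called without the first RELB-/- DMSO library (-0.22), either RELB-/- zymosan library (-0.18 and -0.12), the second WT DMSO library (-0.23) or the second WT zymosan library (-0.06). With total-count scaling the share of called differences that were positive was 34.3%, against 59.4% with TMM, in CEBPB-/-, and 39.1% against 49.6% in IRF5-/-.

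With DMSO alone, Slc40a1 was lower in all 6 knockout lines than in their WT. It had 46.4 and 48.1 CPM in CEBPB-/- and 14.2 and 12.9 CPM in JUNB-/- cells, against 142 and 137 CPM in WT. It had 48.1 and 46.0 CPM in IRF5-/- and 17.0 and 14.5 CPM in RELB-/- cells, against 88.1 and 89.2 CPM in WT. In the separate table it had 16.6 and 17.2 CPM in RUNX1-/- and 1.82 and 1.68 CPM in KLF6-/- cells, against 131 and 132 CPM in WT. No knockout library reached a WT library of its table. The same held for 44.6% of all genes in CEBPB-/-, 47.6% in JUNB-/-, 37.1% in IRF5-/-, 35.8% in RELB-/-, 42.7% in RUNX1-/- and 43.3% in KLF6-/-, so that separation alone says little. The log2 differences were -1.56 ± 0.05 (adjusted p = 2.31e-34), -3.36 ± 0.06 (3.23e-47), -0.91 ± 0.05 (1.48e-28), -2.49 ± 0.06 (3.95e-52), -2.95 ± 0.05 (1.72e-33) and -6.23 ± 0.08 (7.95e-36) in CEBPB-/-, JUNB-/-, IRF5-/-, RELB-/-, RUNX1-/- and KLF6-/-. At least 2-fold lower in these lines were 18.9%, 24.4%, 14%, 11.1%, 15.1% and 15.6% of all genes, and all of these lines but IRF5-/- passed that size for Slc40a1. CEBPB-/- and JUNB-/- share the WT libraries of the first set, and the other lines those of the second. The 6 differences are therefore not independent of each other, here and for the other genes and markers below.

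Markers of other cell types also differed between knockout and WT cells with DMSO, and Slc40a1 is abundant in macrophages. Of 9 macrophage markers tested, 8 were called lower in CEBPB-/-, 9 in JUNB-/-, 9 in IRF5-/-, 8 in RELB-/-, 6 in RUNX1-/- and 8 in KLF6-/-, where 36.9%, 41.1%, 29.6%, 27.3%, 37.1% and 35% of all genes were called lower in the same order. Their summed level was 1008 to 1010 CPM in CEBPB-/- and 421 to 431 CPM in JUNB-/-, against 1124 to 1162 CPM in WT. It was 579 to 580 CPM in IRF5-/- and 679 to 682 CPM in RELB-/-, against 924 to 928 CPM in WT. It was 1745 to 1761 CPM in RUNX1-/- and 1162 to 1164 CPM in KLF6-/-, against 1367 to 1376 CPM in WT, so in RUNX1-/- the sum was higher while Slc40a1 was lower. Among the defining macrophage genes reported here, Spic was at 0 in all 6 lines and also in the first WT, and no other such gene was at 0 in either WT. Vcam1 was at 0 in CEBPB-/- and JUNB-/-, C1qa and Mrc1 in IRF5-/-, C1qa in RELB-/-, C1qa and C1qb in RUNX1-/- and C1qa and C1qc in KLF6-/-. In WT cells of the first set C1qb averaged 4.91 CPM and Mrc1 19.7 CPM. Eosinophil and mast cell markers summed to 514 to 536 CPM in CEBPB-/- and 221 to 225 CPM in JUNB-/-, against 1636 to 1639 CPM in WT. They summed to 651 to 658 CPM in IRF5-/- and 426 to 434 CPM in RELB-/-, against 3472 to 3539 CPM in WT, and to 768 to 785 CPM in RUNX1-/- and 621 to 633 CPM in KLF6-/-, against 5138 to 5251 CPM in WT. The part of these cells in the Slc40a1 difference was not tested.

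**Figure D4:**
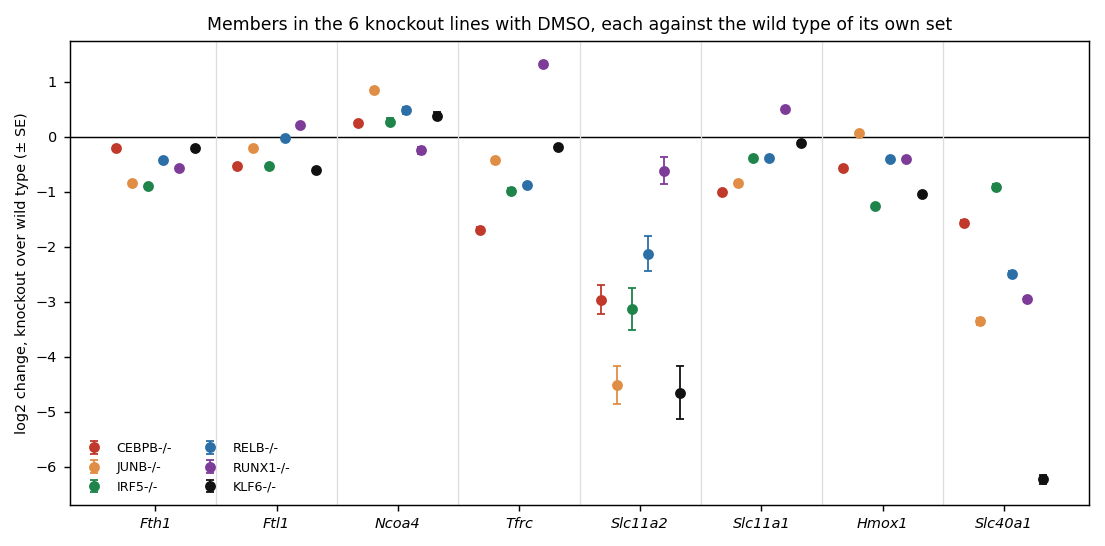
Log2 difference of each knockout line over its WT with DMSO (TMM-scaled edgeR fit, bars are SE) for the 8 iron genes, 2 libraries per group. Slc40a1 lies below 0 in all 6 lines, from -0.91 in IRF5-/- to -6.23 in KLF6-/-, and Tfrc lies above 0 in RUNX1-/- alone, at 1.33.

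The other members did not all differ in 1 direction with DMSO, and some differed by more than Slc40a1. Slc11a2 was at -2.96 in CEBPB-/-, -4.52 in JUNB-/- and -3.14 in IRF5-/- cells, and Hmox1 at -1.26 in IRF5-/- cells. Called higher and lower were 1 and 7 members in CEBPB-/- (70.5% of all genes were called), 2 and 6 in JUNB-/- (76.4%), 1 and 7 in IRF5-/- (64.6%), 1 and 6 in RELB-/- (59.4%), 3 and 5 in RUNX1-/- (75.3%) and 1 and 7 in KLF6-/- (66.2%). Lower calls made up 36.9%, 41.1%, 29.6%, 27.3%, 37.1% and 35% of all genes in these lines, and higher calls 33.6%, 35.4%, 35%, 32.1%, 38.2% and 31.2%. Fth1 was lower in all 6 with TMM scaling, with log2 differences of -0.20 ± 0.03, -0.84 ± 0.03, -0.91 ± 0.01, -0.42 ± 0.01, -0.58 ± 0.02 and -0.20 ± 0.02. In TPM, which are not TMM-scaled, it averaged 25017 ± 191 in RUNX1-/- and 24199 ± 585 in WT cells (SD, n = 2 each), so that difference depends on the scaling. In the separate table Fth1 had 7165 and 7020.3 CPM in RUNX1-/- and 9190.1 and 9180.4 CPM in KLF6-/- cells, against 10585 and 10576 CPM in WT. Those WT libraries are the ones that read 7134 and 7147 CPM in the table of the second set, which shows how far a CPM depends on its table.

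Slc11a2 was lower in all 6 lines too with TMM scaling, on few reads. It had 0.303 and 0.445 CPM in CEBPB-/- and 0.101 and 0.148 CPM in JUNB-/- cells, against 2.73 and 3.16 CPM in WT. In KLF6-/- cells it had 2 reads in each library, against 61 and 59 reads in WT. The RUNX1-/- difference was the smallest, at -0.62 ± 0.25 (adjusted p = 0.0249), and was not called without the second RUNX1-/- library (-0.41) or the first WT library (-0.52). In TPM, which are not TMM-scaled, Slc11a2 averaged 0.692 ± 0.140 in RUNX1-/- and 0.688 ± 0.0517 in WT cells (SD, n = 2 each). This difference therefore depends on the scaling. Hmox1 was lower in 5 lines, with 146 and 148 CPM in IRF5-/- cells, against 350.4 and 351 CPM in WT (-1.26 ± 0.02), and 254 and 249.6 CPM in KLF6-/- cells, against 519.9 and 519.7 CPM in WT (-1.04 ± 0.02). In TPM, however, RUNX1-/- cells averaged 681 ± 3.40, against 588 ± 14.4 in WT (SD, n = 2 each). In JUNB-/- cells Hmox1 was 0.07 ± 0.03 log2 units higher (adjusted p = 0.034), a call that turned to -0.47 with total-count scaling and ended without the first JUNB-/- library (0.07).

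Tfrc and Slc11a1 were higher in RUNX1-/- cells and lower in the other 5 lines. Tfrc had 191 and 195 CPM in RUNX1-/- cells, against 76.4 and 77.5 CPM in WT (1.33 ± 0.03, adjusted p = 2.36e-28), whereas the others reached down to 22.6 and 20.8 CPM in CEBPB-/- cells, against 71.6 and 68.3 CPM in WT (-1.69 ± 0.05). Slc11a1 had 401 and 383 CPM in RUNX1-/- cells, against 272 and 279 CPM in WT (0.51 ± 0.02). Neutrophil markers mostly went the opposite way. All 8 were lower in RUNX1-/-, summing to 19319 to 19617 CPM, against 69311 to 72593 CPM in WT. In the other lines 5 to 8 of 8 were higher. Cell cycle genes summed to less than in WT in all 6 lines with DMSO: to 19.1 to 20.0 CPM in RUNX1-/- and 62.2 to 62.4 CPM in KLF6-/- cells, against 114.8 to 118 CPM in WT. They summed to 8.01 to 8.93 CPM in CEBPB-/- and 34.9 to 36.5 CPM in JUNB-/- cells, against 61.1 to 65.6 CPM in WT, and to 28.4 to 29.0 CPM in IRF5-/- and 25.4 to 27.97 CPM in RELB-/- cells, against 77.5 to 79.8 CPM in WT. The part of these differences in the Tfrc and Slc11a1 values was not tested. Ncoa4 was 0.24 ± 0.04 to 0.84 ± 0.04 log2 units higher in the other 5 lines and -0.25 ± 0.06 in RUNX1-/-, signs that turned in CEBPB-/- (to -0.11) and RUNX1-/- (to 0.12) with total-count scaling. With that scaling the median of all genes was -0.40 in CEBPB-/-, -0.67 in JUNB-/-, -0.07 in IRF5-/-, 0.02 in RELB-/-, 0.38 in RUNX1-/- and -0.18 in KLF6-/-. The share of calls that were higher then went to 23.3% with total counts, against 47.6% with TMM, in CEBPB-/-, to 20.4% against 46.3% in JUNB-/-, to 42.9% against 54.2% in IRF5-/-, to 71.6% against 50.8% in RUNX1-/- and to 33.5% against 47.1% in KLF6-/-.

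With zymosan present, the low level of Slc40a1 in knockout cells persisted, whereas Fth1 was no longer lower in 3 of the 4 lines. Slc40a1 was -1.98 ± 0.08, -4.14 ± 0.10, -1.31 ± 0.10 and -3.47 ± 0.13 log2 units from zymosan-treated WT in CEBPB-/-, JUNB-/-, IRF5-/- and RELB-/- cells. Fth1 was 1.23 ± 0.03 higher in CEBPB-/- and 0.65 ± 0.03 higher in JUNB-/- cells. It was 0.11 ± 0.01 higher in IRF5-/- cells, which turned to -0.07 with total-count scaling, and -0.08 ± 0.01 in RELB-/- cells. The RELB-/- call ended without the second RELB-/- zymosan library (0.00) or either WT zymosan library (-0.02 and -0.04). Tfrc was 0.76 ± 0.03 higher in JUNB-/- cells and -0.21 ± 0.04 in CEBPB-/-. Called higher and lower were 3 and 4 members in CEBPB-/- (67.9% of all genes were called), 5 and 3 in JUNB-/- (76.5%), 1 and 7 in IRF5-/- (60.4%) and 1 and 4 in RELB-/- (56%). The count in RELB-/- was 3 in all without the second WT zymosan library. With total-count scaling the all-gene medians were -0.59, -0.53, -0.19 and -0.07. The share of calls that were higher was then 18.7%, against 51.5% with TMM, in CEBPB-/-, 27.9% against 51.1% in JUNB-/- and 32.6% against 49% in IRF5-/-.

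The mRNA of the targeted genes gave a mixed check of the labels. Relb (68.3 and 67.5 CPM in RELB-/- cells, against 168 and 172 CPM in WT) and Junb (486 and 511 CPM in JUNB-/- cells, against 851 and 948 CPM in WT) were lower. Irf5 was 81.0 and 81.8 CPM in IRF5-/- cells, against 95.7 and 101 CPM in WT, and Cebpb was 537 and 510.3 CPM in CEBPB-/- cells, against 479 and 536 CPM in WT. Runx1 (156 and 152 CPM, against 59.3 and 61.5 CPM in WT) and Klf6 (851 and 852 CPM, against 622 and 638 CPM in WT) were higher in the lines labelled RUNX1-/- and KLF6-/-. Reads outside a deleted part check nothing, so every direction above is that of the line as labelled.

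Other iron genes, taken from lists of known function, were examined beside the members. In the first and second WT with zymosan, the NRF2 and BACH1 axis had 8 of 10 genes called higher and 1 lower in each, where 35.7% and 36.3% of all genes were called higher and 39.9% and 32.1% lower. Its largest changes were in Slc7a11, the cystine transporter (4.16 and 3.74), Srxn1, which repairs peroxiredoxins (4.01 and 2.80), and Txnrd1, thioredoxin reductase (3.44 and 2.82). In CEBPB-/- and JUNB-/- the count was 8 higher and 2 lower, in IRF5-/- 6 and 2, and in RELB-/- 7 and 2. Of all genes, 35.1%, 36.5%, 34.3% and 35.2% were called higher in these 4 lines, and 38.4%, 36.7%, 35.4% and 37.5% lower. With DMSO, the same list was mainly lower in 4 knockouts: 2 higher and 8 lower in CEBPB-/- and in JUNB-/-, 1 and 7 in IRF5-/- and 2 and 7 in RELB-/-. In RUNX1-/- it was 6 and 4, and in KLF6-/- 5 and 5. The shares of all genes called lower and higher with DMSO are those given for the members. Nqo1, a quinone reductase, was lowest in JUNB-/- (-4.88) and CEBPB-/- (-3.65) and higher in RUNX1-/- (2.49).

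Haem breakdown and traffic genes had 4 of 6 called higher and 2 lower with zymosan in the first WT, and 3 and 2 in the second, led in both by Blvra, the biliverdin reductase that acts after haem oxygenase (1.91 and 2.02). For this list and those below, the shares of all genes called with zymosan are those given with the NRF2 and BACH1 axis. Haem synthesis had 1 of 8 called higher, Alas1, its first enzyme (0.87 and 1.32), and 3 lower in both. Iron sensing and chaperone genes had 3 of 6 higher and 3 lower in both, with Aco1, which becomes an iron regulatory protein, at -0.91 and -1.08, and Fbxl5, which degrades the other such protein, at -1.89 and -0.63. Mitochondrial iron and iron-sulfur cluster genes had 1 higher and 4 lower of 8 in the first WT, and 1 and 5 in the second, with Slc25a28 (mitoferrin 2) at -1.51 and -1.32. Uptake and reduction genes had 4 higher and 1 lower of 8 in the first WT, and 3 and 0 in the second. Of these, Lcn2, the siderophore-binding lipocalin, changed by 0.56 and 1.15, while Steap4, a ferric reductase, went opposite ways, at -0.38 and 1.97. Of the export and hepcidin genes, 2 passed the filter, and 1 was called higher in the first WT and 0 in the second. With DMSO, Ltf, the granule protein lactoferrin, was 3.87 log2 units higher in JUNB-/- and -4.24 in RUNX1-/- cells. In tissues, 0 genes of these lists were called between membrane, blood and bone marrow.

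The genes whose level over the 12 libraries of the first set was most like that of Fth1, among 5358, were Mapre2 (Pearson r = 0.998), Sema4d (0.997) and Efhd2 (0.996). Over the 12 libraries of the second set, among 5367, they were Arid5b, Mefv and Gadd45a, each at 0.999. The libraries fall into separate zymosan and DMSO clusters, so a value near 1 says little more than that both genes differ between them.

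Accessible chromatin near the members was read from the authors' merged list of 47164 sites on build mm10 (GRCm38). Within 50000 bp of the gene start lay 16 sites at Fth1, 12 at Ftl1, 8 at Ncoa4, 9 at Tfrc, 8 at Slc11a2, 11 at Slc11a1, 10 at Hmox1 and 4 at Slc40a1. Sites covered the start of 6 members, all but Slc40a1 and Slc11a2, and none of those start sites was in a differential list. The authors' deposited lists of differential sites held 9 sites near 5 members. These lists give no value per library, and their score was read as -log10 of an adjusted p because its lowest value lies just above that of the usual threshold. Distances are from the gene start, negative upstream.

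Near Fth1 the authors' deposited table listed 3 intergenic sites upstream, all more open in blood than in bone marrow, 2 of them in exudate and membrane as well. The site chr19:9945718-9946252, at -36451 bp, was in the exudate over bone marrow list (score 11.3), the membrane over bone marrow list (6.08) and the blood over bone marrow list (3.28). The site chr19:9954450-9955341, at -27362 bp, had scores of 9.48, 6.86 and 2.47 in those lists of the authors' deposited table. The last, chr19:9936453-9936952 at -45751 bp, was listed for blood over bone marrow alone (1.86). The authors' deposited table gives all 3 to another gene, Incenp. Over all gene starts, 14.9% had a site of the exudate over bone marrow increased list within that distance, 13.1% one of the membrane over bone marrow list and 2.41% one of the blood over bone marrow list.

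Slc11a1 was the only member with listed sites within 10000 bp of its start. No share of all gene starts is given for that distance. The site chr1:74381297-74382065, at 6102 bp and over an exon of Slc11a1, was more open in exudate than in blood (score 6.40 in the authors' deposited table) and bone marrow (8.14), and in membrane than in blood (6.17) and bone marrow (7.90). The site chr1:74373249-74373866, at -1329 bp, was less open in the same 4 comparisons, with scores of 5.14, 4.87, 4.02 and 3.80 in the authors' deposited table. It ends before the first base of the Slc11a1 window printed above. Over all gene starts, 10.4% had an increased and 4.99% a decreased site of exudate against blood within 50000 bp, and 8.7% and 4.25% one of membrane against blood.

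Slc40a1 had 2 listed sites downstream of the gene, at 44593 bp (chr1:45881374-45881930) and 45238 bp (chr1:45880772-45881285). In the authors' deposited table the first was more open in exudate (9.22), membrane (4.89) and blood (2.86) than in bone marrow, and the second in exudate (1.62) and membrane (1.49); both are given to Wdr75. Near Tfrc, chr16:32650903-32651474 in an intron of Tnk2, at 41983 bp, was less open in exudate (3.79) and membrane (2.05) than in bone marrow in the authors' deposited table; 10.5% and 10.3% of all gene starts had a site of these lists. Near Slc11a2, chr15:100411013-100411519 in an intron of Slc11a2, at 13553 bp, was more open in exudate than in blood, with the lowest score of these sites (1.39 in the authors' deposited table). Ftl1, Hmox1 and Ncoa4 had no listed site within 50000 bp. Over all gene starts, 29.1% had a site of any of the 10 lists and 62.9% a merged site, beside 5 and 8 of the 8 members.

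**Figure D5:**
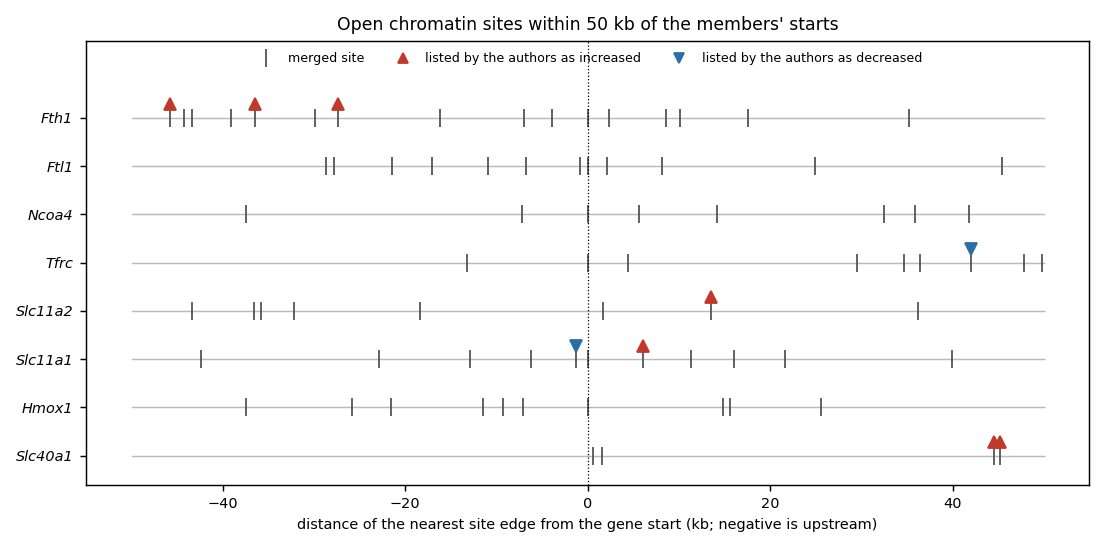
Distance in kb of merged accessible sites (ticks) and of sites the authors listed as increased or decreased (coloured marks) from the start of each iron gene, negative upstream. Listed sites lie near 5 of the 8 genes, and the only ones within 10 kb of a start are the 2 at Slc11a1. No share of all gene starts is given for 10 kb.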

How the data were processed

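RNA was measured in 15 tissue and 28 ER-Hoxb8 libraries and chromatin accessibility in 8 ATAC-seq libraries, and samples were grouped by their labels. The authors deposited raw read counts per gene, made with featureCounts 1.5.0-p2 (tissues, strand ignored) or 1.6.3 (cultures, reverse-stranded) at mapping quality 255, per the file headers, after alignment with STAR to mm10 (GRCm38), per the submitters' processing notes. The same notes name cutadapt, Bowtie2, MACS2, deepTools and DESeq2 for ATAC-seq. The deposited site lists hold 1 number per site, read from its values as −log10 of the authors' adjusted p. The deposited merged list also holds a score and other columns, which were not used.

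Of 50600 gene identifiers, 50376 (99.6%) matched a symbol. Here counts were filtered (filterByExpr, minimum 10), leaving 12330 genes in the tissues and 12899, 13779 and 13608 in the 3 culture tables. They were TMM-scaled and fitted with edgeR 4.0.16 (R 4.3.3), by group over all libraries of a table. The quasi-likelihood test was adjusted by Benjamini-Hochberg over all genes, and a gene was called at an adjusted p under 0.05. SE are of the log2 change. DESeq2 1.42.0, other scalings, filters and left-out libraries were alternatives, with a block of column tag and number added later, and the fits were tested on simulated data. No library used molecular identifiers, so low counts cover counting error only. The first culture table holds 18 columns of no sample used here, which were left out.

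The 8 members, the lists of other iron genes and the marker lists were chosen with earlier results of these data known. From each iron list, up to 3 called genes with the largest change and a mean log2 CPM of at least 2 could be named per comparison, and the 3 genes most like Fth1 at a mean log2 CPM of at least 4. Macrophage, eosinophil, lymphoid, erythroid, cell cycle and targeted genes are named as checks. The level of 1 macrophage marker is not reported here.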

Additional observations from a re-analysis of the deposited data

Results flagged for a closer look

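Dixon's test was run on log2(CPM + 1) in exudate and blood, for each of the 8 members, which gave 16 sets. In 4 of the 16 a library lay farther from the others than the 95% limit allows. Chance flags about 1 in 20 sets, but these share libraries and are not independent. Membrane and bone marrow, with fewer libraries, were not looked at. The second exudate library stood high in Slc11a1, at 2116 CPM against 616 to 702 CPM in the other 4. The fourth exudate library was the only one of its group with Ncoa4 reads (0.267 CPM); with the other 4 at 0, any read would have set it apart. The fifth blood library held 42.3 CPM of Tfrc, against at most 2.80 CPM in the others, and the third blood library 3.87 CPM of Slc11a2.

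In the cultures, the zymosan response of 25 of 32 member and line pairs differed from that of WT by the interaction term of the edgeR fit, in log2 units, knockout minus WT. In CEBPB-/- the differences were 1.44 for Fth1, 0.63 for Ftl1, 0.59 for Hmox1, 1.48 for Tfrc, 0.48 for Slc11a1 and -0.42 for Slc40a1. In JUNB-/- they were 1.49 for Fth1, 0.67 for Ftl1, 0.87 for Hmox1, 1.2 for Tfrc, 0.62 for Slc11a1 and -0.78 for Slc40a1. In IRF5-/- they were 1.01 for Fth1, 0.28 for Ftl1, 0.61 for Hmox1, 0.89 for Tfrc, 0.09 for Slc11a1, -0.4 for Slc40a1 and -0.95 for Ncoa4. In RELB-/- they were 0.34 for Fth1, 0.33 for Hmox1, 0.92 for Tfrc, 0.37 for Slc11a1, -0.98 for Slc40a1 and -0.27 for Ncoa4. Every group here is 2 libraries.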

How the results depend on the processing

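Tissue calls depended on the tool and the filter. Without a filter on low counts 1 member, Fth1, was called in each of the 3 comparisons outside exudate; DESeq2 called 2 between membrane and bone marrow and 1 between membrane and blood; a fit of the compared groups alone called 1 between membrane and bone marrow; leave-one-out fits of that pair gave 0 to 1. DESeq2 called 551 genes higher and 1079 lower in exudate than in bone marrow, where edgeR called 8 and 14. Its all-gene counts for the membrane comparisons are given with the tissue tests above. For the fits without the filter, of the compared groups alone and with a block, no share of all genes is given, so nothing is read from those member counts. For RELB-/- against WT with zymosan, 3 members were called without the filter and 3 to 4 when a library was left out, against 5. When a call also needed a 2-fold change, the counts with DMSO were 4 (CEBPB-/-), 2 (JUNB-/-), 2 (IRF5-/-), 2 (RELB-/-), 2 (RUNX1-/-) and 3 (KLF6-/-). With zymosan they were 3, 2, 2 and 2 for the first 4 lines, and for the responses 2, 2, 1 and 0. Of all genes, 5.97%, 11%, 5.51%, 4.04%, 12.3% and 4.75% were then called higher with DMSO, beside the lower shares given for Slc40a1. With zymosan 9.38%, 15.8%, 5.82% and 3.43% were higher and 18.3%, 23.1%, 14.7% and 12.8% lower. For the responses 7.26%, 8.91%, 4.06% and 2.63% were higher and 3.94%, 3.67%, 3.67% and 3.96% lower. Near members lay 23 listed site entries within 50000 bp, 8 within 10000 and 49 within 100000.

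Some differences changed sign, and the cause was not tested. Total-count scaling gave -0.11 for Ncoa4 in CEBPB-/- and 0.12 in RUNX1-/- with DMSO, and -0.47 for Hmox1 in JUNB-/- with DMSO. With zymosan it gave -0.48 for Ftl1, -0.56 for Hmox1 and -0.39 for Ncoa4 in CEBPB-/-, -0.050 for Ftl1 in JUNB-/- and -0.072 for Fth1 in IRF5-/-. It gave -0.70 for the Ncoa4 response of IRF5-/- cells and -0.012 for the Ftl1 difference of response in RELB-/-. Hmox1 in CEBPB-/- with zymosan was -0.027 without the filter and -0.063 with the compared groups alone. Ncoa4 in the CEBPB-/- response was 0.0038 with the compared groups alone. Slc11a2 in the JUNB-/- response was -0.083 with RLE scaling and -0.035 with DESeq2, and -0.35 to 0.19 in leave-one-out fits; in the IRF5-/- response these ran from -0.47 to 0.075. In RELB-/- with zymosan, Ftl1 was 0.038 with RLE scaling, 0.014 without the filter, 0.038 with DESeq2, 0.048 with its pseudogene added (chosen after seeing the data) and -0.0028 to 0.050 in leave-one-out fits. Slc11a1 there was 0.046 with RLE scaling, 0.021 without the filter, 0.046 with DESeq2 and 0.015 to 0.046 in leave-one-out fits. The Ftl1 difference of response in RELB-/- ran from -0.0083 to 0.15. Hmox1 between membrane and blood was -0.54 with a term for the column tag. When libraries were left out, Ncoa4 and Hmox1 between blood and bone marrow ran from -0.18 to 3.30 and from -0.87 to 0.046, and Slc40a1 between membrane and bone marrow from -2.87 to 2.71.

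The fit with a replicate block gave the same call and direction for 160 of 160 member changes and 20 of 20 member counts in the cultures. Same-numbered libraries correlated at -0.04 to 0.09 in their deviations from group means. With 2 libraries per group these values cannot tell whether same-numbered libraries share a culture, and the main fits used no pairing. In the tissues, tag and number in a column name match no label. Libraries of different tissues that share both correlated at -0.04 to 0.10 in 11 pairs, none over 0.1. A replicate block of tag and number, added after seeing the data, called 1 member between blood and bone marrow (Fth1), 1 between membrane and blood (Fth1) and 2 between membrane and bone marrow (Fth1 and Slc11a1), against 0 in each without it; the cause was not tested. With 2 membrane libraries and a coefficient of variation of 1.86, Slc11a1 was not called without that block at a log2 difference of 4.19 between membrane and bone marrow. An uncalled tissue difference is therefore no evidence of equal levels, and no limit of detection is given here.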
